A study of Mus musculus with 6 samples.

Results

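The minor spliceosome removes a small class of introns, the U12-type introns, that the major spliceosome leaves in place. A small set of proteins sets it apart from the major machinery, and the genes of 8 of them, Rnpc3, Snrnp25, Snrnp35, Snrnp48, Zmat5, Pdcd7, Zcrb1 and Zrsr2, are described here. The members were chosen by gene symbol, and all 8 were found among the 24041 rows of the deposited gene table and passed the low-count filter that left 14451 genes.

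Messenger RNA was measured in 6 libraries of GFP-positive cells sorted from mouse cerebral cortices after electroporation, the delivery of plasmid DNA by electric pulses. In 3 libraries the cells had been given GFP and mutant PRPF6, and in 3 GFP and wild-type PRPF6. GFP and a PRPF6 plasmid were therefore common to both groups, and no group was without one, so a higher value with mutant PRPF6 cannot be told apart from a lower value with wild-type PRPF6. The labels give neither the mutation, the species of the plasmid's PRPF6, the promoter, the age, the strain nor whether libraries came from separate animals. All p-values therefore cover no more than the variation seen among the 6 libraries, part of which may be technical.

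In the minor spliceosome the U11 and U12 small nuclear RNAs act as a preassembled pair, the U11/U12 di-snRNP. U11 pairs with the 5′ splice site and U12 with the branch point, the places taken by U1 and U2 in the major spliceosome. PRPF6 belongs to the tri-snRNP that joins next, which carries U5 in both machineries and pairs it with U4 and U6 in the major and with U4atac and U6atac in the minor one. In mice, loss of the U11 gene in the developing cortex depletes radial glia, the neural stem cells, and leaves a small cortex. In humans, variants of the U4atac gene cause severe microcephaly.

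Of the members, Snrnp48 and Rnpc3 are known in vertebrates to be regulated by the particle they help to build. Each of the 2 genes holds a pair of U11-binding sites with the letters of a U12-type 5′ splice site, and binding of the di-snRNP there favours splicing to forms that yield less protein. The following sequences are shown because they are the element through which this feedback works, and the U11 end that reads it. They were read from GENCODE M21 transcripts (GRCm38), 5′ to 3′ on the RNA's strand, with the paired copies of the motif GTATCCTTT or ATATCCTTT in capitals.
Snrnp48: GTATCCTTTttgcaaatgATATCCTTT
Rnpc3: GTATCCTTTcttGTATCCTTT
U11 snRNA, first 30 bases: aaAAAGGGcttctgtcgtgagtggcacacg

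The Snrnp48 pair lies on chromosome 13 (chr13:38214668-38214694, plus strand), in intron 4 of 8 of the coding transcript, and appears in 1 annotated transcript, a retained-intron form. The Rnpc3 pair lies on chromosome 3 (chr3:113607236-113607256, minus strand), in the 3′ UTR in exon 15 of 15. It is missing from the shorter coding transcript Rnpc3-203 and from the annotated forms of Rnpc3 that are not coding. In the U11 RNA (Rnu11, chromosome 4, 132270080 to 132270213, minus strand) the capitals mark bases 3 to 8, which can pair with bases 4 to 9 of the motif over 6 bases when G:U pairs are allowed. Searched on the RNA strand only, at least 1 copy of either 9-base motif occurred in annotated transcripts of 4.10% of 21951 protein-coding genes. A pair of copies that did not overlap and lay within 30 bases of each other, start to start, occurred in 4 genes (0.0182%). These were Rnpc3, Snrnp48, the olfactory receptor gene Olfr715 and the vomeronasal receptor gene Vmn2r17. The motif and window follow the element already known in Snrnp48 and Rnpc3, so their place among the 4 is no test of it. Introns were searched only where an annotated transcript retains them, and none of the other 6 members had a copy. Counts per gene do not separate the transcript forms, so the feedback itself was not measured.

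None of the 8 genes passed the test between mutant and wild-type PRPF6. With edgeR's quasi-likelihood test and Benjamini-Hochberg adjustment over all tested genes, 0 of 8 members were called (adjusted p = 1.00 for each), against 0% of all 14451 genes. At an unadjusted p under 0.05 stood 0 of 8 members and 3.38% of all genes. In 0 of 8 members did the mutant libraries all lie on one side of the wild-type libraries, against 9.14% of all genes. Fitted differences were above 0 in 6 of 8 members, against 49.8% of all genes, and below 0 in 2, with a median log2 difference of 0.088, beside −0.0013 over all tested genes. Without mutant replicate 3 that median was −0.058, without mutant replicate 2 it was 0.21, without mutant replicate 1 it was 0.0045, and without wild-type replicate 3 it was 0.021. In sorted bulk cells, fewer cells of a type and less RNA per cell cannot be told apart, for these values and those that follow.

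**Figure D1:**
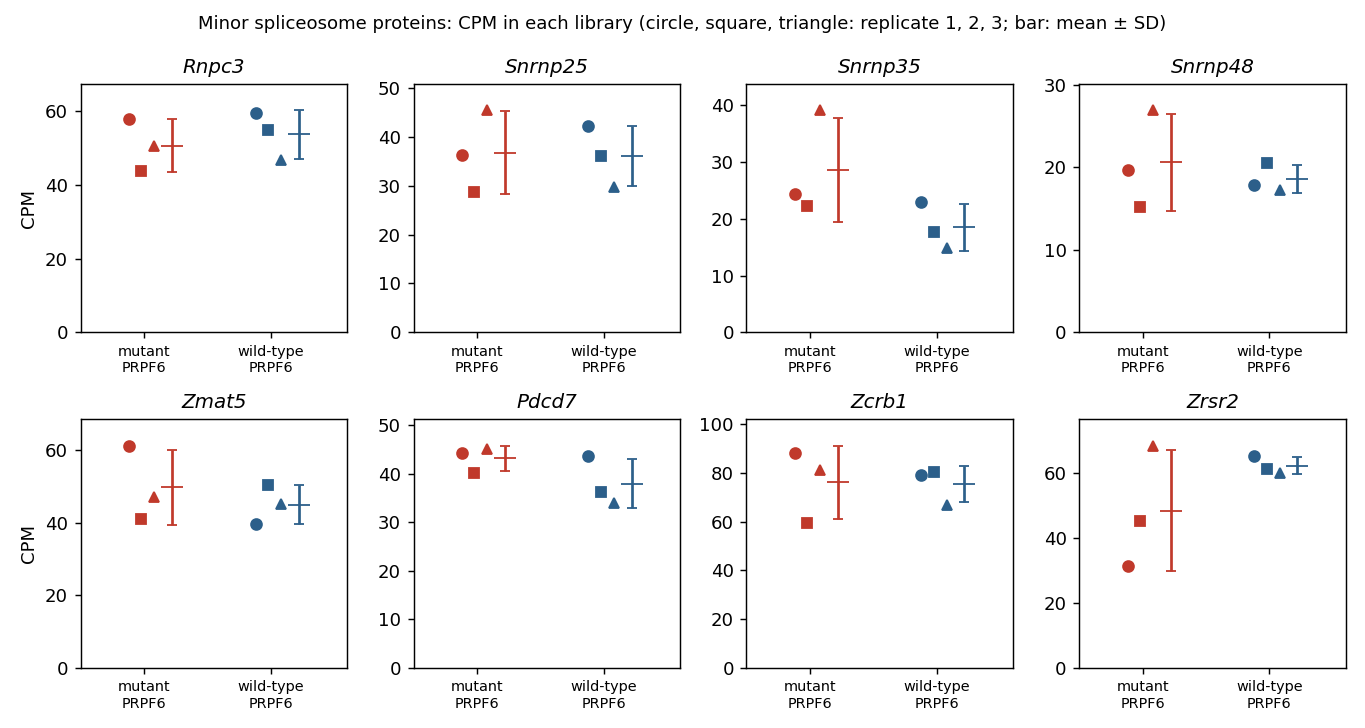
CPM of each member in each library (y axis, from 0), with mutant PRPF6 in red on the left and wild-type PRPF6 in blue on the right; circle, square and triangle are replicates 1, 2 and 3, and the bar is the mean ± SD (n = 3). In every panel the groups overlap, most narrowly for Snrnp35.

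The values that follow are CPM, the usual unit of counts relative to a TMM-scaled library total. They describe 1 gene across libraries and are not levels to compare between genes. Among the U11 proteins, Snrnp48 recognises the 5′ splice site together with U11. It stood at 19.7, 15.2 and 26.9 CPM in mutant replicates 1, 2 and 3, against 17.9, 20.5 and 17.3 CPM in the wild-type ones. Both the highest and the lowest values were in mutant libraries. The log2 difference was 0.15 ± 0.31 (SE, n = 3 each; 95% interval −0.57 to 0.87, a fold of 0.675 to 1.82). Its sign turned without mutant replicate 3, to −0.092.

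Snrnp35, a U11 protein that resembles the U1 protein Snrnp70, had the largest fitted difference of the 8. It was at 24.4, 22.3 and 39.1 CPM with mutant PRPF6 and at 23.0, 17.7 and 14.9 CPM with wild-type PRPF6. Mutant replicate 3 stood highest, and only wild-type replicate 1 lay above the lowest mutant library, mutant replicate 2. The means were 28.6 ± 9.16 CPM with mutant and 18.5 ± 4.15 CPM with wild-type PRPF6 (SD, n = 3 each). The log2 difference of 0.63 ± 0.32 (SE) did not pass the edgeR test (unadjusted p = 0.0889, adjusted p = 1.00). Its interval ran from −0.12 to 1.37, so that a fold of 0.921 and one of 2.59 both lie at its edges. Without mutant replicate 3 the difference was 0.33, and over all 6 fits that left out 1 library it ran from 0.33 to 0.81. Snrnp70 itself, which binds U1 in the major spliceosome, was at 270 ± 15.9 CPM with mutant and 311 ± 36.5 CPM with wild-type PRPF6 (SD, n = 3 each). Its log2 difference was −0.20 ± 0.14 (SE). Snrnp70 was named after its values were seen. The difference between the 2 genes was not tested.

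Snrnp25, a small U11 protein with a ubiquitin-like fold, was at 36.3, 28.6 and 45.4 CPM in the mutant libraries and at 42.1, 36.0 and 29.8 CPM in the wild-type libraries. The groups covered nearly the same range. The log2 difference was 0.032 ± 0.26 (SE; 95% interval −0.56 to 0.62), and its sign turned without mutant replicate 3 (−0.15) or wild-type replicate 3 (−0.083). Zmat5, a zinc finger protein of the U11 particle, was at 61.3, 41.0 and 47.1 CPM with mutant and 39.7, 50.4 and 45.1 CPM with wild-type PRPF6. Mutant replicate 1 stood highest and wild-type replicate 1 lowest. The log2 difference was 0.14 ± 0.22 (SE; 95% interval −0.37 to 0.66), and −0.033 without mutant replicate 1.

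Pdcd7 and Rnpc3 join the U11 and U12 sides of the particle: Rnpc3 binds the U12 RNA through its RNA recognition motif and contacts Pdcd7, which sits on the U11 side. Pdcd7 was at 44.2, 40.2 and 45.1 CPM with mutant and 43.6, 36.2 and 34.0 CPM with wild-type PRPF6. It was the member that varied least, with a highest value 1.32 times its lowest. Its log2 difference was 0.19 ± 0.20 (SE; 95% interval −0.28 to 0.65), positive in all 6 fits that left out a library (0.12 to 0.30). Rnpc3 was at 57.9, 43.7 and 50.5 CPM with mutant and 59.7, 54.8 and 46.7 CPM with wild-type PRPF6. Its log2 difference was −0.083 ± 0.20 (SE; 95% interval −0.55 to 0.38), and 0.014 without mutant replicate 2.

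Zcrb1, a zinc knuckle and RNA recognition motif protein of the di-snRNP, was at 88.1, 59.3 and 81.1 CPM with mutant and 79.0, 80.4 and 67.0 CPM with wild-type PRPF6. The log2 difference was 0.013 ± 0.20 (SE), and a fold below 0.732 or above 1.39 lay outside its 95% interval. Its sign turned with upper-quartile scaling (−0.010) and without mutant replicate 1 (−0.10) or 3 (−0.035) or wild-type replicate 3 (−0.061).

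Zrsr2 recognises the 3′ splice site of U12-type introns and is related to U2af1, which does so in the major spliceosome. It was at 31.4, 45.2 and 68.3 CPM with mutant and at 65.2, 61.3 and 60.0 CPM with wild-type PRPF6. The wild-type libraries lay close together, while the mutant libraries held both the lowest values and the highest one. The means were 48.3 ± 18.6 CPM with mutant and 62.2 ± 2.71 CPM with wild-type PRPF6 (SD, n = 3 each). The log2 difference was −0.36 ± 0.28 (SE; 95% interval −1.01 to 0.29; edgeR unadjusted p = 0.233). It was −0.13 without mutant replicate 1, the lowest library, and −0.70 without mutant replicate 3, the highest (edgeR unadjusted p = 0.0227, adjusted p = 1.00).

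Zrsr2 is the 1 member on the X chromosome. Xist, the RNA of the inactive X, was at 192 CPM in mutant replicate 1 and 239 CPM in wild-type replicate 1, at 1.93 and 2.64 CPM in mutant replicates 2 and 3, and 76.5 and 85.6 CPM in the remaining wild-type libraries. Those with the most Xist were thus the library lowest in Zrsr2 and a library with 65.2 CPM of it. The part of the X chromosomes in the Zrsr2 values was not tested. Its autosomal paralogue Zrsr1, a single-exon copy on chromosome 11, was at 8.14, 4.10 and 4.19 CPM with mutant and 10.03, 6.12 and 5.53 CPM with wild-type PRPF6, a log2 difference of −0.40 ± 0.60 (SE). All counts of the 8 members were whole numbers in all 6 libraries. Of the 31-base words in coding Zrsr2 transcripts, 0.484% occurred in transcripts of other genes, as written or as reverse complements.

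**Figure D2:**
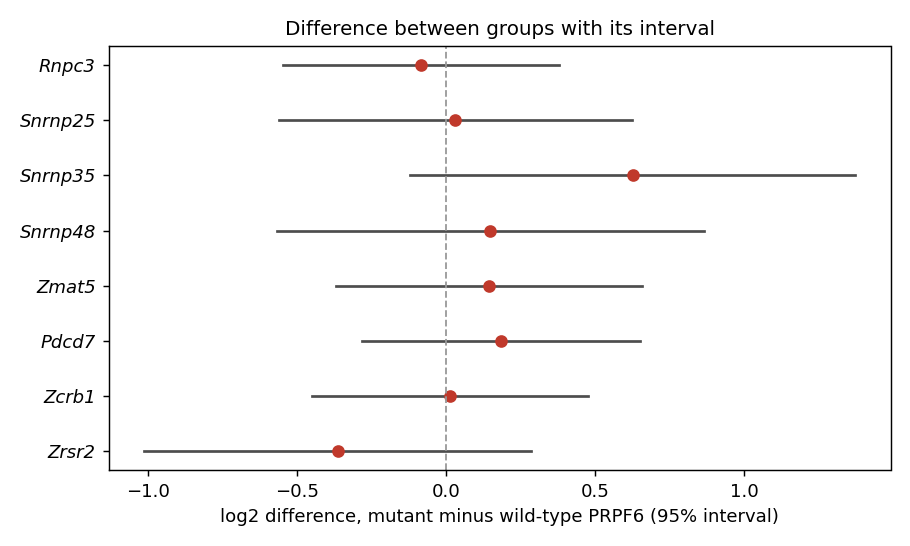
Log2 difference (mutant minus wild-type PRPF6) of each member with its 95% interval from the fit over all genes; the dashed line is no difference. Every interval crosses 0, and the widest span is that of Snrnp35, −0.12 to 1.37.

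For each member, the range over the libraries of at least 1 group was wider than the difference between the group means. Mutant replicate 3 was highest of the 6 libraries in 5 of the 8 members, and mutant replicate 2 was lowest in 4. The CPM of the 8 genes together summed to 363, 296 and 404 in mutant replicates 1, 2 and 3, and to 370, 357 and 315 in wild-type replicates 1, 2 and 3. The SD over mutant libraries was larger than that over wild-type libraries for 7 members, the exception being Pdcd7, against 56.0% of all tested genes. Within a group, the SD of log2 CPM ran from 0.14 for Pdcd7 to 0.40 for Zrsr2. Among tested genes of a mean CPM within 2-fold of Pdcd7, 94.0% varied more than it did, while for Zrsr2 27.3% did.

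The pair of libraries with the lowest member means, mutant replicate 2 and wild-type replicate 3, also had the most genes with a count, 16208 and 16373 against 14651 to 15327 elsewhere. The 6 endothelial markers summed to 54.3 and 114 CPM there, and to 4.87 CPM or less in the others. The 6 meningeal markers summed to 163 and 1619 CPM there and to 13.7 to 132 CPM elsewhere, and the 6 microglial markers to 611 and 154 CPM, against 20.6 to 233 CPM elsewhere. The 11 red blood cell markers summed to 1600 and 17127 CPM there, and to 81.7 to 2819 CPM elsewhere. For these last 2 lists the pair thus overlapped the other libraries. Across groups, the 10 radial glia markers summed to 2128 to 3985 CPM with mutant and 1657 to 2302 CPM with wild-type PRPF6. The 10 neuron markers summed to 1852 to 3475 CPM with mutant and 3401 to 4460 CPM with wild-type PRPF6, and the 11 red blood cell markers to 81.7 to 1600 CPM with mutant and 992 to 17127 CPM with wild-type PRPF6. Radial glia and neuron markers of the cortex were thus present in every library, and no radial glia, neuron, meningeal or microglial marker was at 0 in any. Of the red blood cell list 2 markers, and of the endothelial list Cdh5 and Flt1, were at 0 in at least 1 library. The part of these cells in the members' values was not tested.

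By rule, the genes whose profile over the 6 libraries lay nearest to the members' mean profile were named. The measure was the root mean square distance of centred log2 CPM, over 11348 candidate genes. Nearest were Nsun2, an RNA methyltransferase (distance 0.037), Nip7, a ribosome biogenesis factor (0.041), and H2afy, a histone variant (0.044). These genes were picked for the smallest distances, so that the distances are small is no result. Each member was measured from the mean of the other 7, a choice made after the values were seen. The members' distances thus have another reference and are not comparable with those of the named genes. Snrnp25 lay nearest (0.103), with 2.04% of candidates nearer than it to that mean, and Zrsr2 farthest (0.432), with 61.01% nearer. Snrnp35 lay at 0.366, beside 0.349 for the median candidate. The distance depends on how much a gene varies as well as on its pattern. A gene that varies little can therefore lie near without following the other members.

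Levels between genes were compared per length, as CPM per kb of the transcript with the longest coding sequence. Zcrb1 was the most abundant at 86.8 ± 17.1 CPM per kb with mutant and 86.0 ± 8.37 with wild-type PRPF6 (SD, n = 3 each), and was above the next gene in all 6 libraries, although their ranges over the 6 libraries overlap. Zmat5 followed at 62.9 ± 13.2 CPM per kb with mutant and 56.9 ± 6.76 with wild-type PRPF6, then Snrnp25 at 44.8 ± 10.2 with mutant and 43.8 ± 7.48 with wild-type PRPF6. The ranges of Zmat5 and Snrnp25 overlap. The lowest Snrnp25 value, 34.9 CPM per kb, lay above the highest of the next gene by mean, Zrsr2, 25.0 CPM per kb. It was close to the highest value of Snrnp35, 33.1 CPM per kb in mutant replicate 3. Zrsr2 was at 17.7 ± 6.82 CPM per kb with mutant and 22.7 ± 0.989 with wild-type PRPF6. Snrnp35 was at 24.2 ± 7.76 CPM per kb with mutant and 15.7 ± 3.52 with wild-type PRPF6, and Pdcd7 at 17.8 ± 1.07 with mutant and 15.7 ± 2.06 with wild-type PRPF6. The ranges of these 3 genes over the 6 libraries overlap. With wild-type PRPF6 every Zrsr2 value (21.96 to 23.8) lay above every value of Snrnp35 (12.6 to 19.5) and Pdcd7 (14.1 to 18.01), while with mutant PRPF6 Zrsr2 (11.5 to 25.0) overlapped both, and Snrnp35 (18.9 to 33.1) lay above Pdcd7 (16.6 to 18.6). Rnpc3, at 13.0 ± 1.83 CPM per kb with mutant and 13.8 ± 1.69 with wild-type PRPF6, lay below Pdcd7 in all 6 libraries, although the ranges over the 6 libraries overlap. Snrnp48 was lowest, at 11.5 ± 3.32 CPM per kb with mutant and 10.4 ± 0.964 with wild-type PRPF6, and below Rnpc3 in 5 of 6 libraries. This order rests on the transcript length chosen. With the length of each gene's shortest coding transcript instead, a choice made after the values were seen, Zrsr2 moved to the highest mean, 145 CPM per kb over the 6 libraries. Rnpc3 (28.4) and Snrnp48 (23.1) stayed lowest by their means, also with the longest coding transcripts (11.2 and 10.96). Coding transcripts of Rnpc3 run from 1839 to 4679 bases, and at 1839 bases for Rnpc3 alone its 28.4 would stand above the means of Zrsr2 (20.2), Snrnp35 (19.95) and Pdcd7 (16.8).

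**Figure D3:**
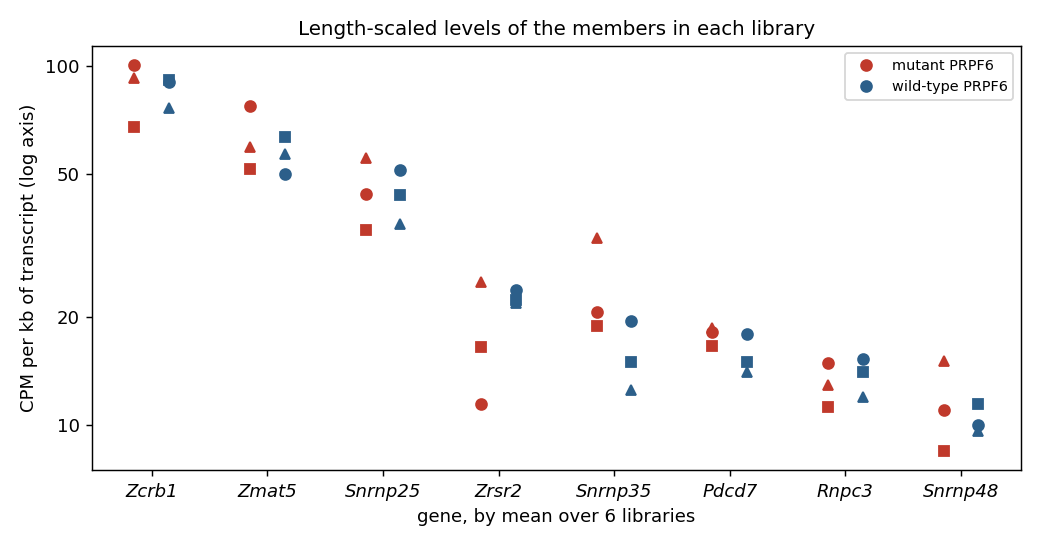
CPM per kb of transcript on a log axis for each member in each library, ordered by the mean over 6 libraries; red is mutant and blue wild-type PRPF6, and the marker shape gives the replicate as circle, square and triangle for 1, 2 and 3. Zcrb1, Zmat5 and Snrnp25 lie at 34.9 CPM per kb or higher and the other 5 members between 8.50 and 33.1.

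The 8 genes lie on 7 chromosomes of GRCm38: Rnpc3 on chromosome 3 (113605067 to 113630149, minus strand), Snrnp35 on 5 (124483134 to 124491124, plus), Pdcd7 on 9 (65346104 to 65359643, plus) and Zmat5 on 11 (4704678 to 4737669, plus). Snrnp25 also lies on 11 (32205415 to 32208984, plus), Snrnp48 on 13 (38204938 to 38227665, plus), Zcrb1 on 15 (93386097 to 93398334, minus) and Zrsr2 on X (163935443 to 163958661, minus). Zmat5 overlaps Cabp7 on the opposite strand by 778 bases, and Rnpc3 overlaps Amy1 on its own strand by 1633 bases. Without a stated strand setting the reads of Zmat5 and Cabp7 cannot be separated there. Cabp7 had at most 95 counts in a library and Zmat5 at least 1848. Amy1 had at most 179 counts and Rnpc3 at least 2175. These are expected counts after reads were assigned to genes, so they do not show how shared reads were assigned, which was not tested. The 31-base words of coding transcripts were searched as written and as reverse complements. Of those of Zmat5, 40.8% were found in Cabp7, and of those of Rnpc3 22.04% in Amy1. The share was 8.56% for Snrnp35 in 1700128F08Rik, which had 0 counts, and 5.78% for Zcrb1 in Gm9202.

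The other genes of minor splicing were also without a call. The list holds factors tied to the minor spliceosome in mammals (Scnm1, Rbm48, Armc7, Cript, Cenatac, Txnl4b and Rbm41), Zrsr1 and 4 small nuclear RNAs. Of its 12 entries 10 were found and 8 tested, with 0 called, 2 of the fitted differences above 0 and 6 below, and a median of −0.12. Leaving out 1 library moved that median as far as −0.20 (mutant replicate 3) and −0.062 (wild-type replicate 1). Scnm1 was at 48.9 ± 3.58 CPM with mutant and 55.6 ± 6.36 CPM with wild-type PRPF6, and Rbm41 at 15.9 ± 3.83 CPM with mutant and 19.8 ± 3.24 CPM with wild-type PRPF6 (SD, n = 3 each). Rnu11 and Rnu12, the U11 and U12 RNA genes, had 0 or 1 and 0 to 7 counts in a library. The cDNA kit primes on poly(A) tails, which these RNAs lack.

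SF3b, which recognises the branch point in both spliceosomes, had 0 of 7 called, 4 above 0 and 3 below, with a median of 0.13. Sf3b2 was at 637 ± 44.3 CPM with mutant and 559 ± 4.67 CPM with wild-type PRPF6, with all mutant libraries above all wild-type ones, and Sf3b3 at 361 ± 35.1 CPM with mutant and 308 ± 36.6 CPM with wild-type PRPF6 (SD, n = 3 each). Without mutant replicate 3 that median was −0.12. Sf3b2 was the 1 gene of these 7 without overlap between groups, against 9.14% of all tested genes. The Sm ring, shared by all these particles except those of U6 and U6atac, had 0 of 8 called, 1 above 0 and 7 below, with a median of −0.015. That median ran from −0.21 without mutant replicate 3 to 0.11 without mutant replicate 2. It was also above 0 (0.0075) when wild-type replicate 2 was left out. Snrpb was at 497 ± 73.1 CPM with mutant and 406 ± 37.3 CPM with wild-type PRPF6, and the imprinted Snrpn at 254 ± 46.2 CPM with mutant and 293 ± 34.1 CPM with wild-type PRPF6. Of the U1, U2 and U2AF proteins, the counterparts in the major spliceosome, 0 of 10 were called, 6 were above 0 and 4 below, with a median of 0.032. That median was −0.078 without mutant replicate 3, −0.042 without wild-type replicate 3 and up to 0.15 without mutant replicate 2. U2af2, the large U2AF subunit, had the lowest unadjusted p of these lists (0.0167; edgeR adjusted p = 1.00), at 125 ± 5.67 CPM with mutant and 92.7 ± 4.36 CPM with wild-type PRPF6. The mutant libraries of U2af2 all lay above its wild-type ones, as in no other of these 10 genes. Of all tested genes, 9.14% had no overlap in either direction and 3.38% an edgeR unadjusted p under 0.05. Sf3a1, a U2 protein, was at 242 ± 32.8 CPM with mutant and 185 ± 27.5 CPM with wild-type PRPF6 (SD, n = 3 each).

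**Figure D4:**
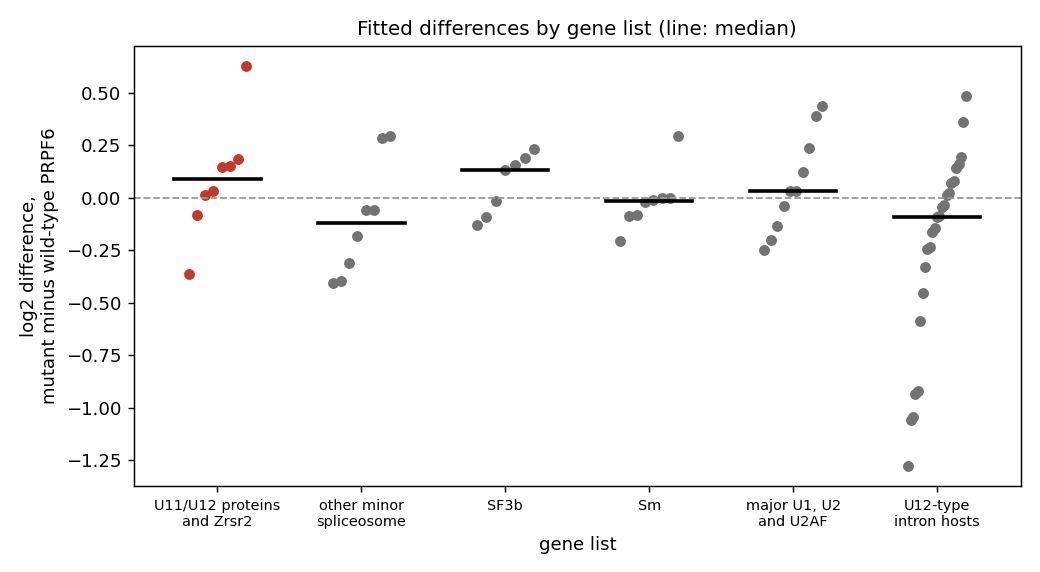
Fitted log2 difference (mutant minus wild-type PRPF6) of each tested gene by list, with the 8 members in red and the other lists in grey; the black line is the median. The medians run from −0.12 to 0.13, and the widest spread is in the host genes of U12-type introns, −1.28 to 0.48.

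For the substrates, 25 genes known in mammals to hold a U12-type intron were followed, written from general knowledge and not read from a genome. All 25 were tested and 0 called, with 9 fitted differences above 0, 16 below and a median of −0.090. Without wild-type replicate 1 that median was −0.0071, and it ran to −0.15 when wild-type replicate 2 was the one left out. Leaving out mutant replicate 1 gave −0.055, and leaving out wild-type replicate 3 gave −0.037. Cacna1b, a neuronal calcium channel gene, was at 8.76, 10.8 and 4.88 CPM with mutant and 16.6, 14.1 and 16.1 CPM with wild-type PRPF6, all mutant libraries below all wild-type ones (log2 difference −0.94 ± 0.42, SE; edgeR adjusted p = 1.00). Hps1, a gene of lysosome-related organelles, was at 58.4, 37.8 and 39.2 CPM with mutant and 34.8, 28.7 and 33.5 CPM with wild-type PRPF6, all mutant libraries above (0.48 ± 0.25, SE; edgeR adjusted p = 1.00). These 2 genes were named for the smallest unadjusted p of the list. Over the 25, all mutant libraries lay above in 1 gene and below in 2, Cacna1b and Mapk8. Of all tested genes, 9.14% had no overlap in either direction. The list holds 9 sodium and calcium channel genes of excitable cells, and the neuron markers given above summed to 1852, 3475 and 2360 CPM in mutant replicates 1, 2 and 3, against 3401 to 4460 CPM in the wild-type libraries. The part of neuron content in its median was not tested. Retention of the U12-type introns was not measured, since the table holds 1 count per gene.

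Prpf6 was at 131, 145 and 125 CPM with mutant and 166, 124 and 131 CPM with wild-type PRPF6 (log2 difference −0.073 ± 0.17, SE), and whether plasmid transcripts add to it is not stated.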

How the data were processed

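The authors deposited unscaled expected counts for each gene, obtained with RSEM on mm10, per the submitters' processing notes. Its version, the aligner, the annotation and the strand setting were not stated there. Library totals were 45115122 to 60600617 counts, so that 1 count was worth 0.0164 to 0.0228 CPM. Counts were rounded, filtered with filterByExpr, scaled with TMM and compared between groups by the robust quasi-likelihood F-test of edgeR 4.0.16 (group as sole term, two-sided) in R 4.3.3, with Benjamini-Hochberg adjustment over 14451 genes and a threshold of 0.05. SE is the log2 difference over the square root of F. Log2 CPM used a prior count of 2. Reads carried no molecular identifiers and are not independent molecules.

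The members and gene lists were chosen with earlier results of these data known. All members were named, and from each list the 2 genes of smallest unadjusted p where none was called. A planned search for U12-type introns needed a genome sequence, so the list written by hand was used. Alternatives were DESeq2 1.42.0, limma-voom (limma 3.58.1), DESeq2 size factors, upper-quartile factors, 2 other filters, non-robust estimation, a threshold of 0.1, a replicate block, and leaving out each library. Sequences and coordinates are from GENCODE M21 on GRCm38, which is mm10, matched by symbol for all 8 members.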

Additional observations from a re-analysis of the deposited data

How the results depend on the processing

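The count of called genes was 0 in the edgeR fits under each other scaling, filter and estimation setting and at an adjusted p under 0.1, and 0 with limma-voom (551 genes at an unadjusted p under 0.05, against 489 with edgeR). It was 6 with DESeq2 (642 at an unadjusted p under 0.05), where 8695 genes, 4 members among them, had no adjusted p; for the other 4 members it was 1.00. Leaving out each library gave 0 calls in all 6 fits (range 0 to 0), with 383 to 1016 genes at an unadjusted p under 0.05.

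The differences of Snrnp35, Pdcd7 and Zrsr2 kept their sign in all 14 alternative fits. The sign of Zcrb1 turned with upper-quartile factors (−0.010), limma-voom (−0.00055), the replicate block (−0.0012), and without 3 of the libraries (range −0.10 to 0.17). Leaving out a library also turned Rnpc3 (range −0.19 to 0.014), Snrnp25 (−0.15 to 0.18), Snrnp48 (−0.092 to 0.33) and Zmat5 (−0.033 to 0.27). When a library was left out, the median ran from −0.12 to 0.17 for SF3b, from −0.21 to 0.11 for the Sm ring, from −0.078 to 0.15 for the major counterparts and from −0.20 to −0.062 for the other minor splicing genes. The cause was not tested.

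Titles number the libraries 1 to 3 in both groups, and descriptions number the same libraries 1, 4 and 5 in both. What these numbers mark is not stated. The main fit took the libraries without pairs, since the labels state no batch, with the replicate block as an alternative. Deviations from the group means correlated at 0.054, 0.061 and −0.26 between libraries numbered 1, 2 and 3. Mutant replicate 2 correlated best with wild-type replicate 3 (0.26). Deviations within a group of 3 are not independent of each other, so these values cannot decide whether the numbers mark pairs. Both replicate 1 libraries were low in the Y-linked Ddx3y, at 3.11 CPM with mutant and 5.58 CPM with wild-type PRPF6, against 67.5 and 39.9 CPM in the other mutant and 51.96 and 36.7 CPM in the other wild-type libraries. Xist did not match by number in replicates 2 and 3, at 1.93 and 2.64 CPM with mutant and 76.5 and 85.6 CPM with wild-type PRPF6. Those wild-type libraries thus held both Xist and Ddx3y RNA, unlike the mutant ones of the same numbers, which held little Xist. The part of sex in the values was not tested. With the replicate block 0 genes were called (307 at an unadjusted p under 0.05), and the members' median was 0.067.

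The searches for U12-type introns by the 5′ splice site with or without the branch point were not run. With 3 libraries a group, the 95% intervals held folds of 0.496 to 1.22 for Zrsr2 and of 0.921 to 2.59 for Snrnp35. These hold the lowest and the highest bound among the members. That of Rnpc3 ran from 0.685 to 1.30.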
